A study of Mus musculus with 36 samples.

Results

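The comparison described here is that of mouse embryonic stem cells under IAA with mouse embryonic stem cells under DMSO, both at day 4. Its members were chosen by their labels alone: 3 libraries of IAA at day 4 and 3 libraries of DMSO at day 4, 6 of the 36 libraries of the study, with all genes. The study as a whole sequenced polyadenylated RNA from mouse embryonic stem cells, the pluripotent cells of the early embryo grown in culture, under DMSO, BPK25 or IAA at days 0, 2, 4 and 6, with 3 libraries in each of the 12 groups. DMSO is the usual solvent for compounds, BPK25 is an agent for which the labels give a code name and nothing more, and IAA is the plant hormone auxin. All groups share a serum-replacement medium with the cytokine LIF, which holds the pluripotent state, and typically a layer of irradiated mouse fibroblasts on gelatin as feeder cells. The labels used here state no strain, genotype, tagged protein, dose, clone or day 0 event. Nor do they say whether the 3 libraries of a group were grown apart, so the spread behind each p-value is that of these libraries and may be technical.

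In the auxin degron method a protein is fused to a short plant tag, and added auxin brings it to a ubiquitin ligase that has it destroyed. Mammalian cells lack the plant receptor that this needs, so the method supplies it as a transgene. The title of the series names CTCF, the DNA-binding protein that, with the cohesin ring, anchors chromatin loops, and NuRD, a complex that joins a nucleosome remodelling motor to histone deacetylases. Embryonic stem cells that leave the pluripotent state lose factors such as NANOG and switch on genes of the germ layers and of the extraembryonic endoderm.

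The 6 libraries held 6769688 to 12428659 counts over genes, within the range of 6621288 to 16497799 of all 36. Replicates were not copies of each other: over genes, chi-square divided by its degrees of freedom was 1.524 to 2.191 for the 6 pairs, and each library was counted as 1 sample. The summed level of 6 embryonic stem cell markers was 781 to 786 CPM (counts scaled to the library's total, which the sums in this paragraph take over all genes of the table) in IAA and 895 to 963 in DMSO. These markers were thus expressed in both groups, but the sum does not give the share of cells that were pluripotent. Pou5f1 made up 275 CPM in IAA and 363 in DMSO on average, and Zfp42 170 and 226. Sox2 (91.6 against 139) and Nanog (15.6 against 40.3) were lower in IAA too. Lin28a (122 against 57.6) was higher, and Sall4 stood at 110 and 108. The 20 fibroblast markers summed to 189 to 202 CPM in IAA and 138 to 149 in DMSO, none of them at 0 in all 6 libraries. Of these sums Fbn1 alone made up 91.2 CPM in IAA and 60.1 in DMSO on average, and some markers were lower in IAA, among them Col6a2 (8.22 against 12.3), Fbln2 (3.41 against 7.73) and Col6a1 (2.46 against 4.81). The 18 endothelial and blood markers summed to 175 to 178 CPM in IAA and 131 to 137 in DMSO, with the globin gene Hbb-bh1 at 0 in all 6. Pecam1 alone made up 94.9 CPM in IAA and 93.7 in DMSO on average, and Kdr 27.2 and 6.73. The part of these other cells in the results below was not tested. In bulk samples like these, fewer cells of a type and less RNA per cell cannot be told apart.

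At day 4, 4511 of 17394 genes tested (25.9%) were higher in IAA than in DMSO and 4510 (25.9%) were lower. A gene is called changed here at an adjusted p under 0.05 in edgeR's quasi-likelihood test with Benjamini-Hochberg adjustment over all genes tested. Changes of at least 2-fold were fewer: 1097 called genes (6.31%) were at least 2-fold higher and 677 (3.89%) at least 2-fold lower. The libraries of the 2 groups did not overlap in 8523 of the 9021 called genes, and in 10103 of all 17394 genes tested. The call was kept without each of the 6 libraries in turn for 6671 genes, 3441 of them higher and 3230 lower. The median log2 fold change over all genes was -0.0036. From here on CPM are on library totals scaled by TMM normalization. Throughout, the value after ± beside a log2 fold change is an approximate standard error, obtained from the size of the change and the test's F value.

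Genes of 3 autosomes were shifted at day 4, each chromosome or chromosome segment mostly in a single direction. Of 898 genes tested on chromosome 8, 47.8% were higher in IAA and 9.58% lower, with a median log2 fold change of 0.25. Of 701 genes on chromosome 12, 53.4% were higher and 9.13% lower, with a median of 0.332. On chromosome 14 the direction turned within the chromosome. The 215 genes of its proximal segment had a median of 0.44, with 60.9% higher and 4.65% lower. The 384 genes of its distal segment had a median of -0.786, with 2.08% higher and 74.0% lower, and 121 of them (31.5%) were at least 2-fold lower. The step was sought among genes with at least 10 CPM on average over all libraries. The last such gene before it was Gm7324 (chr14:43697828-43715378, GRCm38, log2 fold change 0.000644). The first after it was Txndc16 (chr14:45133465-45220328, -0.762). Gm7324 itself lay far from the median of the proximal segment, so the place of the step is approximate. On the Y chromosome, with 12 genes tested, 7 were lower and 1 higher, with a median of -0.345. These chromosomes and the step were singled out after their values were seen.

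The shifts were alike in the 3 IAA libraries, while the 3 DMSO libraries of that day lay together. Over well expressed genes (at least 10 CPM on average), the median difference from the DMSO day 4 mean was 0.214, 0.232 and 0.243 for chromosome 8 in the IAA libraries on the log2(CPM + 0.5) scale. For chromosome 12 it was 0.353, 0.341 and 0.34, for proximal chromosome 14 it was 0.412, 0.377 and 0.403, and for distal chromosome 14 it was -0.811, -0.814 and -0.813. In the 3 DMSO libraries no chromosome, Y and the mitochondrial genome aside, lay further than 0.0143 from 0. The other 17 chromosomes (1 to 19 without these, and X) had median log2 fold changes between -0.0959, on chromosome 16, and 0.0166, on chromosome 5, over the same well expressed genes. All 10 windows of 10 Mb on chromosome 12 had medians of 0.294 to 0.369, and the 12 windows on chromosome 8 had medians of 0.131 to 0.38. The 4 distal windows of chromosome 14 lay at -0.909 to -0.773, while 7 of the 190 windows on other chromosomes lay beyond 0.2 in size.

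**Figure D1:**
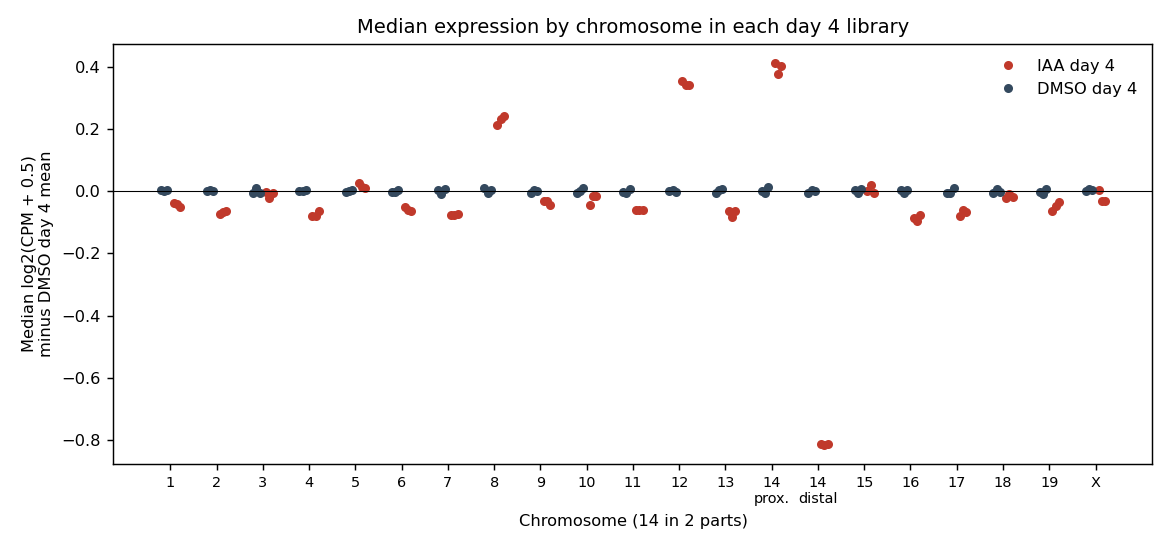
Median level of each chromosome in each day 4 library, as the difference in log2(CPM + 0.5) from the mean of the DMSO day 4 libraries (y axis), for chromosomes 1 to 19 and X with chromosome 14 in a proximal and a distal part (x axis). Each point is 1 library; the IAA points stand apart from 0 on chromosomes 8, 12 and proximal 14, upwards, and on distal 14, downwards at -0.811 to -0.814.

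The same 4 medians were followed through the other groups, measured against the mean of DMSO at day 0. IAA libraries at day 0 already stood at 0.23 for chromosome 8, 0.249 for chromosome 12, 0.352 for proximal and -0.531 for distal chromosome 14. At day 4 the IAA means were 0.288, 0.509, 0.599 and -0.947, in the same order. They were 0.294, 0.49, 0.655 and -0.929 at day 2 and 0.257, 0.481, 0.621 and -0.909 at day 6, close to those of day 4. DMSO at day 4 had means of 0.074, 0.143, 0.159 and -0.144, smaller than those of IAA but of the same signs. BPK25 means at day 0 and day 2 lay between -0.0747 and -0.00257 on all 4. At day 4 its means were 0.268, 0.504, 0.616 and -0.953. Those values lie near the IAA values of that day, and by day 6 the BPK25 means were 0.0789, 0.2, 0.186 and -0.213. What sets these medians was not tested. The labels do not say whether the IAA and DMSO groups were of the same line, clone or culture, and IAA libraries stood apart from day 0 on, so an effect of IAA and a difference between the cells of these groups cannot be told apart in any value given here. Each gene described below that lies on one of these chromosomes is therefore given beside the median of its chromosome or segment. Log2 fold changes at day 0 are given for some genes only, and their difference from those at day 4 was not tested. Where no course in time is named, a gene that rose or fell is one higher or lower in IAA than in DMSO at day 4. Without these chromosomes, 3569 of 15196 genes (23.5%) were higher and 4066 (26.8%) lower, and 908 (5.98%) and 525 (3.45%) were called and at least 2-fold higher or lower.

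**Figure D2:**
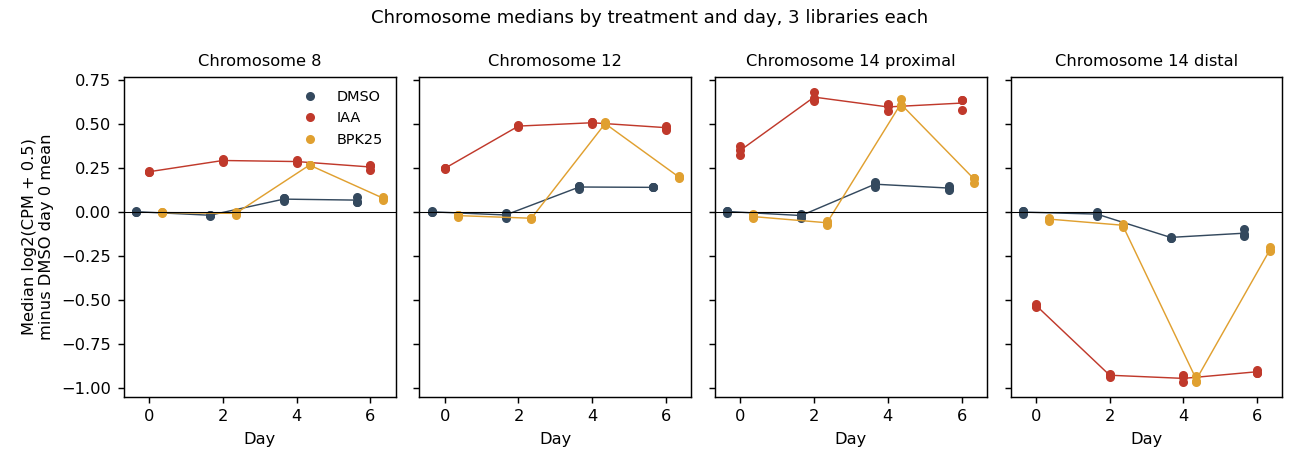
Median level of chromosomes 8, 12, proximal 14 and distal 14 (panels) by day (x axis) as the difference in log2(CPM + 0.5) from the DMSO day 0 mean (y axis). Each point is 1 library, lines join the means of 3, and DMSO and BPK25 are drawn to the left and right of their day for legibility; IAA stands apart at every day, and BPK25 at day 4 lies by IAA.

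The largest rise among genes that met the rule for naming was that of Igf2, the fetal growth factor IGF2 (chr7:142650766-142666816). Its level was 408, 412 and 411 CPM in the IAA libraries and 10.6, 8.87 and 7.93 in the DMSO libraries. The groups lie far apart, and the rise was 44.2-fold (log2 fold change 5.47 ± 0.074, adjusted p = 1.89e-46), the smallest p of all genes together with that of the overlapping model Gm49394. Acta2, the smooth muscle actin gene on chromosome 19, stood at 17.8, 18.3 and 18.6 CPM in IAA and at 0.962, 0.286 and 0.441 in DMSO (log2 fold change 4.95 ± 0.21, adjusted p = 4.15e-25). Nepn, which encodes the matrix proteoglycan nephrocan, stood at 15.3, 13.1 and 12.1 CPM against 0.577, 0.572 and 0.441 (4.6 ± 0.24, adjusted p = 2.97e-22). In all 3 genes each IAA library was above each DMSO library.

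The other genes among the 12 highest were of several kinds, among them genes of secreted proteins and transporters. Ecm1, which encodes extracellular matrix protein 1, had 52.2, 54 and 48.7 CPM in IAA and 3.17, 2.67 and 2.5 in DMSO (4.19 ± 0.13). The gastrointestinal glutathione peroxidase gene Gpx2 rose by 4.36 ± 0.17 on the log2 scale, which is 4.03 above the median of its chromosome 12. The transcription factor gene Osr1, an early gene of intermediate mesoderm, rose by 4.00 ± 0.38, 3.67 above that median. Clca1 (4.29 ± 0.34), the skin and mucosa gene Dmkn (4.21 ± 0.20), the antisense gene Igf2os (4.2 ± 0.20), the anion transporter gene Slc4a9 (4.19 ± 0.21), the neutrophil chemokine gene Cxcl5 (3.89 ± 0.34) and the creatine transporter gene Slc16a12 (3.87 ± 0.31) completed the 12. The largest adjusted p among these 12 was 1.6e-12, that of Osr1. At day 0 the log2 fold change of IAA against DMSO was already 2.85 for Gpx2, 2.85 for Osr1 and 1.81 for Cxcl5. It was 1.29 for Dmkn and 1.16 for Slc16a12, and 0.59 to 0.82 for Igf2, Acta2, Clca1 and Slc4a9. For Ecm1 it was -0.39, for Nepn -0.89 and for Igf2os -2.22.

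The largest falls were those of 2 neighbouring gastrokine genes, which encode secreted proteins known from the lining of the stomach. Gkn1 (chr6:87345650-87350942) had 0 counts in all 3 IAA libraries and 22.4, 17.3 and 18.7 CPM, 541 counts in all, in DMSO. Taking 3 counts over the IAA group as a floor, it was at least 222-fold lower in IAA (adjusted p = 4.67e-27). Gkn2 (chr6:87373357-87379497) stood at 0.656, 0.185 and 0.316 CPM in IAA and 22.7, 19.6 and 21.7 in DMSO, and fell by 5.76 ± 0.22 on the log2 scale, or 54.2-fold. Mucl3, a gene of a mucin-like protein, stood at 1.22, 0.648 and 0.711 CPM against 12.4, 15.9 and 13.5 (-4.02 ± 0.18). For each of the 3 genes the groups did not overlap. All 3 were lower in IAA at day 0 as well, by a smaller log2 fold change: -2.14 for Gkn1, -2.07 for Gkn2 and -0.82 for Mucl3.

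Spp1, the secreted phosphoprotein osteopontin, was the most highly expressed gene among the 12 lowest. It had 143, 136 and 131 CPM in IAA and 979, 966 and 1094 in DMSO, and was 7.42-fold lower (-2.89 ± 0.052, adjusted p = 6.01e-41). Myo7a, an unconventional myosin of sensory hair cells, had 7.5, 7.31 and 7.5 CPM against 84.8, 84.8 and 85.9 (-3.51 ± 0.073, adjusted p = 3.46e-38). The libraries of each group lay close together in both genes, as the plot of the leading genes shows. The others were Trpc5os (-3.76 ± 0.23), which is antisense to a channel gene, and the germ cell and gonad factor genes Dmrtb1 (-2.89 ± 0.16) and Dmrt1 (-2.54 ± 0.080). The folate enzyme gene Aldh1l1 fell by 2.73 ± 0.11 and the bHLH factor gene Tcf23 by 2.51 ± 0.21. Nupr1, a small stress-response factor, is described with its pathway below. Enox1 fell by 2.41 ± 0.20, which is 1.63 below the median of distal chromosome 14 on which it lies. All 12 had an adjusted p of at most 1.08e-14. At day 0 the log2 fold change was already -2.34 for Trpc5os, -1.18 for Dmrt1, -1.11 for Dmrtb1 and -1.08 for Spp1. It was -0.78 for Nupr1, -0.58 for Enox1, -0.56 for Myo7a, -0.45 for Tcf23 and 0.19 for Aldh1l1.

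**Figure D3:**
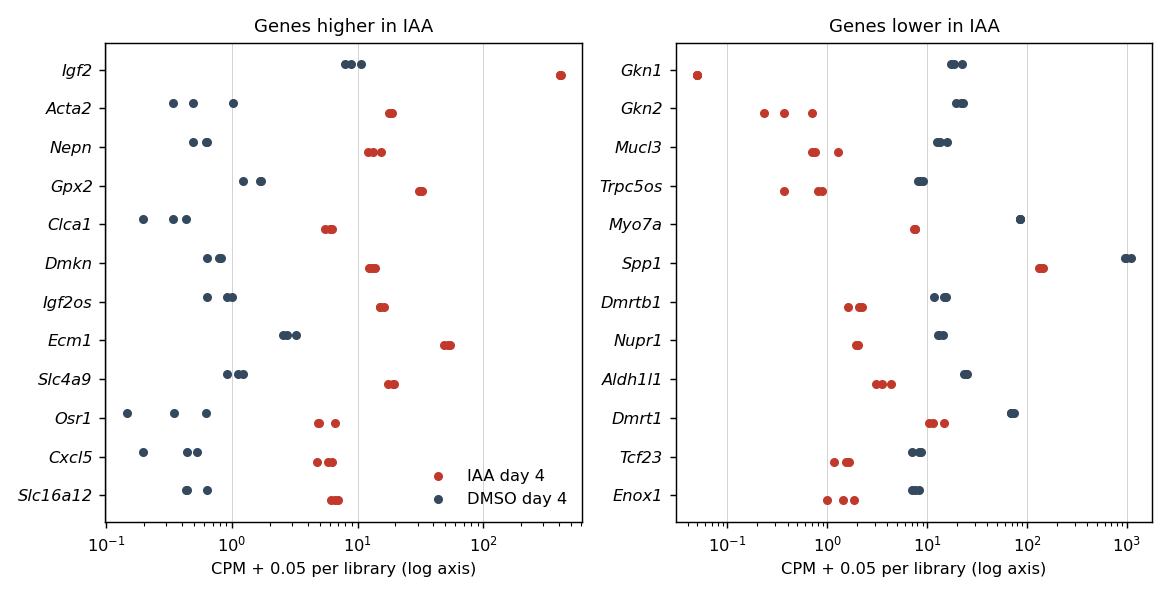
Level of the 12 genes with the highest (left) and the 12 with the lowest (right) log2 fold change that met the naming rule, as CPM + 0.05 in each library on a log axis (x axis), with 3 IAA and 3 DMSO libraries per gene. No IAA point overlaps a DMSO point in any of the 24 genes, and Gkn1 lies at 0 CPM in all IAA libraries.

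Members of 41 gene lists are described below by how many tested members were called in each direction, to be read against 25.9% higher and 25.9% lower over all genes. Core pluripotency genes were lower more often than higher: of 14 tested, 4 were higher and 7 lower, with a median of -0.114. Pou5f1, the master factor OCT4, had 269, 268 and 269 CPM in IAA and 369, 339 and 374 in DMSO (-0.42 ± 0.042, adjusted p = 4.57e-12). Nanog fell further, from 37, 41.5 and 41.7 CPM in DMSO to 16.9, 13.9 and 15 in IAA (-1.39 ± 0.086). Each IAA library was below each DMSO library in both genes. Sox2 (-0.62 ± 0.055) and Dppa4 (-0.83 ± 0.074) were also lower. Lin28a, which blocks the let-7 microRNAs, went the other way: it had 124, 121 and 114 CPM in IAA and 54.6, 56 and 61 in DMSO (1.07 ± 0.055). L1td1 rose by 0.19 ± 0.053.

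Of 19 genes of the naive state, the ground state of mouse embryonic stem cells, 4 were higher and 10 lower, with a median of -0.428. The orphan nuclear receptor gene Nr0b1 (-1.80 ± 0.16), Prdm14, whose product represses primed genes (-1.48 ± 0.21), and the stem cell marker gene Dppa5a (-0.98 ± 0.048) fell. Tet2 (0.57 ± 0.047) and Tbx3 (0.40 ± 0.047) rose. Several naive genes lie on shifted chromosomes: Klf2 fell by 1.18 ± 0.13 although the median of chromosome 8 was 0.25, Zfp42 fell by 0.43 ± 0.051 on the same chromosome, and Esrrb fell by 0.33 ± 0.066, which is 0.66 below the median of chromosome 12. Klf5 fell by 0.65 ± 0.059, close to the -0.786 of distal chromosome 14. Off chromosomes 8, 12 and 14, 4 of 14 naive genes were higher and 6 lower, with a median of -0.222. Of 15 genes of the formative and primed states 4 were higher and 7 lower, among them Dnmt3b (-1.21 ± 0.052) and, on distal chromosome 14, Otx2 (-1.72 ± 0.23, 0.93 below its segment). Off the shifted chromosomes 3 of 10 of them were higher and 3 lower, and the median was 0.147 where that of all 15 was -0.118.

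Signalling pathways were then read by the roles of their members, from ligand to target. Nodal, the ligand that patterns the early embryo, signals through activin receptors with the co-receptor TDGF1 and is held back by its own targets Lefty1 and Lefty2. Of 17 tested members, 5 were higher and 5 lower, with a median of -0.0618. Nodal itself fell by 1.06 ± 0.19, Lefty1 by 0.89 ± 0.18 and Lefty2 by 1.06 ± 0.18. Tdgf1 rose, with 16.4, 17.4 and 19.4 CPM in IAA and 7.12, 6.2 and 6.61 in DMSO (1.42 ± 0.12). The ligand and both antagonists thus moved one way and the co-receptor the other.

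In the BMP pathway, in which ligands of the TGF-beta family act through SMAD proteins on the Id genes, 12 of 22 members were higher and 5 lower, with a median of 0.343. The target genes Id1 (56.6, 52.2 and 56.9 CPM against 25.3, 22.9 and 21.4, 1.24 ± 0.088) and Id3 (1.45 ± 0.15) rose. Id2 rose by 1.23 ± 0.069, 0.90 above its chromosome 12, and Msx2 by 1.10 ± 0.22. Genes of secreted BMP antagonists fell. Grem1 had 0.469, 0.185 and 0.316 CPM in IAA and 2.41, 2.48 and 2.64 in DMSO (-2.90 ± 0.38), and Nog fell by 1.67 ± 0.39. Both were low, at most 2.64 CPM in any library, and their groups did not overlap. The receptor gene Bmpr2 rose by 0.48 ± 0.048. The ligand gene Bmp4 (-0.89 ± 0.16) lay near the median of distal chromosome 14, and the receptor gene Bmpr1a (0.58 ± 0.041) near the 0.44 of the proximal segment.

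For FGF signalling, which drives exit from the naive state through the kinase ERK, 10 of 18 members were higher and 3 lower, with a median of 0.395. The receptor genes Fgfr2 (0.69 ± 0.058) and Fgfr3 (0.80 ± 0.14) rose, and so did the ERK phosphatase gene Dusp6 (0.49 ± 0.079). The ERK target gene Etv5 fell by 0.74 ± 0.12. Fgfr1 rose by 0.47 ± 0.059, 0.22 above chromosome 8, and the feedback inhibitor gene Spry2 fell by 0.94 ± 0.12, 0.15 below distal chromosome 14. Among 17 Wnt effectors and targets 9 were higher and 6 lower. The receptor gene Fzd7 (0.90 ± 0.052), the transcription factor gene Tcf7l2 (0.85 ± 0.066) and Wnt5a, a ligand of the non-canonical branch (2.27 ± 0.14, 1.83 above proximal chromosome 14), rose. The feedback inhibitor gene Nkd2 fell by 0.94 ± 0.17. The stem cell receptor gene Lgr5 rose by 2.16 ± 0.67 from levels at or below 0.381 CPM in DMSO to at most 0.926 in IAA.

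Retinoic acid, made from vitamin A by ALDH1A enzymes and broken down by CYP26 enzymes, turns on genes through its receptors, among them the receptor gene Rarb itself. Of 18 members, 11 were higher and 5 lower, and 6 were called and at least 2-fold higher. The synthesis genes Aldh1a1 (2.52 ± 0.13) and Aldh1a2 (2.43 ± 0.15) rose. The breakdown gene Cyp26b1 had 409, 423 and 389 CPM in IAA and 97.1, 94.8 and 89 in DMSO (2.11 ± 0.050), and its relative Cyp26a1 rose by 0.19 ± 0.039. Uptake receptor gene Stra6 (1.08 ± 0.065) and Rarb (1.65 ± 0.059, 1.21 above proximal chromosome 14) rose too. The intracellular carrier gene Crabp2 fell by 0.26 ± 0.055. The named genes of synthesis, breakdown, uptake and response were thus higher at day 4, and that of the carrier lower.

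Genes of the visceral endoderm, the extraembryonic layer that feeds the early embryo with secreted carriers and uptake receptors, were higher in IAA. Of 20 tested, 15 were higher and 1 lower, 10 of them called and at least 2-fold higher, with a median of 1.2. Uptake receptor gene Cubn had 793, 809 and 796 CPM in IAA and 224, 216 and 231 in DMSO (1.84 ± 0.043, adjusted p = 3.17e-36). Its adaptor gene Dab2 rose by 0.92 ± 0.035 and Lrp2, the partner receptor megalin, by 0.25 ± 0.035. Of the secreted carriers, Afp (alpha-fetoprotein) stood at 11.4, 15.1 and 12 CPM in IAA and 1.06, 0.763 and 0.881 in DMSO (3.81 ± 0.22). Apoa1 (3.31 ± 0.16), Ttr (2.98 ± 0.17), Rbp4 (1.81 ± 0.14) and the fibrinogen chain genes Fgb (2.77 ± 0.16) and Fgg (2.50 ± 0.43) rose, and Apob rose by 1.63 ± 0.092, 1.30 above chromosome 12. Apoe, which is also made by many other cells, was the member that fell (-0.50 ± 0.044). Apart from Apob and Apoe, no named carrier exceeded 26.1 CPM in any library, while Cubn, Dab2 and Lrp2 ranged from 216 to 809 CPM.

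The transcription factors of endoderm moved less. Of 14 tested, 6 were higher and 2 lower, with a median of 0.145. Foxa2 (0.63 ± 0.097) and Gata6 (0.32 ± 0.050) rose, as did Foxa1 (1.11 ± 0.11, 0.78 above chromosome 12). Sox17 was lower by 0.20 ± 0.076 (adjusted p = 0.0224), and it lost its call without DMSO replicate 1 (-0.168) or 3, without IAA replicate 1 or 3 (-0.197) and with no filter on low counts. Basement membrane genes, the laminins and type 4 collagens that endoderm lays down, were higher in 14 of 19 and lower in 1. Col4a1 had 4909, 5124 and 4716 CPM in IAA and 2094, 2104 and 2114 in DMSO (1.22 ± 0.041, 0.97 above chromosome 8), and its neighbour Col4a2 rose by 1.15 ± 0.037, 0.90 above it. The laminin genes Lama5 (1.26 ± 0.059), Lama1 (0.52 ± 0.031) and Lamc1 (0.31 ± 0.043) and the perlecan gene Hspg2 (0.92 ± 0.042) rose. Lamb1 rose by 0.67 ± 0.034, 0.34 above chromosome 12. Off the shifted chromosomes 10 of 15 basement membrane genes were higher and 1 lower.

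Of 15 genes of trophectoderm, the outer layer of the blastocyst, 8 were higher and 1 lower, and all 8 were at least 2-fold higher. The lineage factors Cdx2, Eomes, Hand1, Tfap2a, Tfap2c and Tead4 were not among them and were not called, and 4 of the 8 are keratin genes of simple epithelia in general. Krt18 had 140, 144 and 142 CPM in IAA and 24.2, 24.3 and 25.6 in DMSO (2.53 ± 0.062), and the keratin genes Krt8 (2.11 ± 0.057), Krt19 (3.10 ± 0.11) and Krt7 (2.49 ± 0.24) rose. Gata3, a factor of trophectoderm and other tissues, rose by 3.05 ± 0.16, and the placental gene Plac1 by 3.29 ± 0.26. Fabp3, a fatty acid carrier gene, fell by 0.76 ± 0.055. Among 19 genes of epithelial adhesion, 13 were higher and 1 lower, with a median of 0.607. The claudin genes Cldn7 (2.37 ± 0.16) and Cldn6 (1.21 ± 0.088) and the splicing regulator gene Esrp1 (1.67 ± 0.19) rose. E-cadherin gene Cdh1 rose by 0.77 ± 0.040 and Esrp2 by 1.73 ± 0.17, which are 0.52 and 1.48 above chromosome 8. At day 0 the log2 fold change was already 1.03 for Cdh1, 1.36 for Esrp1 and 0.84 for Cldn7, and it was 0.23 for Esrp2 and 0.16 for Cldn6. The desmosome gene Dsp fell by 0.40 ± 0.043.

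Genes of the mesenchymal shift, the change by which epithelia loosen, moved in both directions, with 9 of 16 higher and 6 lower. N-cadherin gene Cdh2 (0.95 ± 0.089) and, on chromosome 12, Twist1 (1.52 ± 0.18, 1.18 above its median) rose while the filament gene Vim fell by 0.22 ± 0.044. Off chromosomes 8, 12 and 14 the count was 5 higher and 5 lower of 11. In early mesoderm, 8 of 15 genes were higher and 1 lower, and 6 were called and at least 2-fold higher. The somite factor gene Meox1 had 87.2, 83 and 81.4 CPM in IAA and 11.6, 11.4 and 9.4 in DMSO (2.93 ± 0.087). Kdr, the receptor of vascular growth factor, rose by 2.00 ± 0.12 and Pdgfra by 0.51 ± 0.039, and Tcf15 fell by 1.69 ± 0.18.

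Of the mesoderm genes that rose, 3 lie on chromosome 8, as does Foxc2, named after its value was seen, and each rose by more than the chromosome median of 0.25. Foxf1, a factor of lateral plate mesoderm, had 10.4, 10.1 and 10.4 CPM in IAA and 1.44, 1.05 and 1.18 in DMSO (3.06 ± 0.22). Fendrr, the long noncoding RNA gene beside it, had 1.59, 2.04 and 2.21 CPM in IAA, or 67 counts, and 0 counts in DMSO, at least 18.1-fold higher with 3 counts over the DMSO group as a floor. Foxc2, a near neighbour, rose by 2.82 ± 0.21, and Hand2, a factor of heart and limb, by 2.52 ± 0.30. None of these 4 genes reached 11 CPM in any library.

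Actin and smooth muscle genes driven by the factor SRF gave the highest share of risers among the 41 lists: 19 of 20 were higher and 1 lower, with a median of 0.838. SRF binds a short motif known as the CArG box and is switched on by MRTF cofactors that sense free actin. Tagln, the smooth muscle gene of transgelin, had 44.5, 50.8 and 43.6 CPM in IAA and 6.45, 4 and 4.26 in DMSO (3.21 ± 0.11). Cnn1 (1.81 ± 0.16), Cnn2 (2.1 ± 0.089) and Tpm1 (1.28 ± 0.051), of thin filaments, rose, and so did the non-muscle myosin gene Myh9 (0.95 ± 0.045), the filamin gene Flna (0.86 ± 0.039), Actb (0.82 ± 0.057) and Actg1 (0.41 ± 0.044). Srf itself rose by 0.48 ± 0.069. Vcl, which encodes vinculin, rose by 1.03 ± 0.045, 0.59 above proximal chromosome 14. Cald1 was the lower member, at -0.16 ± 0.068 (adjusted p = 0.0487), and it lost its call without DMSO replicate 2 (-0.134) or 3, without each IAA replicate, with RLE size factors, in DESeq2 and with no filter on low counts.

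The promoters of 2 of these genes are shown because they hold a CArG box in the 250 bases before the start and their genes were among the most increased of the list (RefSeq, GRCm38.p6, the gene's own strand; capitals mark the box).
Acta1: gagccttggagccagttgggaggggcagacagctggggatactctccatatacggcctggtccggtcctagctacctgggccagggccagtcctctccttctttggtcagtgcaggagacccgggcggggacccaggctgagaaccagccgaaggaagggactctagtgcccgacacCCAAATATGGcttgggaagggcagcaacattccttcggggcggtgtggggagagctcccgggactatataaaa
Myl9: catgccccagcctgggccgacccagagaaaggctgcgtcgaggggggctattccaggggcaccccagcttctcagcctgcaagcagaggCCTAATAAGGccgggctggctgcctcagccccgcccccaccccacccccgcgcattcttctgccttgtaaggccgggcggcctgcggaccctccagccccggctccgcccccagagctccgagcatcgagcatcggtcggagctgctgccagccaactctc
They lie at chr8:123894776-123895025 on the minus strand and chr2:156775214-156775463 on the plus strand, with boxes that begin 73 and 161 bases before the start. Skeletal actin gene Acta1 stood at 6.56, 6.11 and 5.53 CPM in IAA and 0.481, 0.572 and 0.734 in DMSO (3.36 ± 0.27, 3.11 above chromosome 8). Myl9, the smooth muscle myosin light chain, stood at 41.1, 34.6 and 41.9 CPM against 5.96, 5.82 and 5.43 (2.76 ± 0.13). Over a window of 300 bases (250 before the start and 50 after), with both strands read, a CArG box was found in 1.63% of 32851 promoters and in 6 of 22 promoters of this list (27.3%), those of Acta1, Actg1, Cnn2, Myl9, Srf and Vcl. Promoters were found for 18 of the 20 genes, and this motif was added after values had been seen. A match is a description of letters and not a binding site.

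Of 23 genes of YAP and the Hippo pathway, which report cell shape and contact, 11 were higher and 9 lower. Target genes Ccn1 (63.6, 55 and 60.5 CPM in IAA, 12, 13.5 and 14.5 in DMSO, 2.17 ± 0.084), Ankrd1 (3.36 ± 0.41) and Amotl2 (1.69 ± 0.049) rose, and Yap1 itself fell by 0.18 ± 0.052. The TEAD motif GGAATG stood in 14.7% of all promoters and in 12 of 21 on this list (57.1%, 18 of 23 genes matched). Genes with the motif went both ways. Amotl2, Ccn1, Sav1, Ptpn14, Ankrd1 and Axl were higher, Wwtr1, Ajuba, Crim1 and Yap1 were lower, and Lats2 was not called. Of 19 immediate early genes 9 were higher and 1 lower, among them Egr1 (0.80 ± 0.12) and Junb (1.18 ± 0.13, 0.93 above chromosome 8).

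Neural genes were higher in 9 of 16 and lower in 4. Sox11, a factor of neural progenitors, had 81.9, 81.3 and 85.2 CPM in IAA and 16.6, 15 and 16.6 in DMSO (2.37 ± 0.069, 2.04 above chromosome 12). The progenitor filament gene Nes rose by 1.36 ± 0.074, and Dcx by 3.15 ± 0.44 at 1.57 to 3 CPM. Stmn2, a gene of neuron growth cones, fell by 2.00 ± 0.097 and so went against the others. Of 34 Hox genes, which set position along the body axis, 17 were higher and 8 lower. Hoxc8 (2.11 ± 0.11), Hoxc9 (1.21 ± 0.11) and Hoxd4 (2.21 ± 0.23) rose. Hoxb8 (88.3, 89.3 and 87.7 CPM in DMSO, 58.7, 60.9 and 61.1 in IAA, -0.55 ± 0.056) and Hoxb6 (-0.52 ± 0.058) fell.

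Imprinted genes are read from 1 parental copy, and CTCF at the control region between Igf2 and H19 is the textbook case of an insulator that keeps shared enhancers from Igf2 on the maternal copy. Of 32 imprinted genes tested, 17 were higher and 8 lower, 12 of them called and at least 2-fold higher. At the locus itself Igf2 rose as described above and H19, the noncoding RNA gene that uses the same enhancers, fell: it had 132, 124 and 125 CPM in IAA and 182, 186 and 169 in DMSO (-0.50 ± 0.059, adjusted p = 5.35e-10). H19 lies at chr7:142575529-142578143. Igf2 shares its place with the model Gm49394 (5.46 ± 0.073), so the split of reads between both is uncertain. Igf2os runs on the other strand across Igf2, and as no source used here gives the strand setting, its rise and that of Igf2 cannot be told apart. The same holds for Trpc5os and the gene opposite it.

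Neighbours on the H19 side, named after their values were seen, did not all follow Igf2. Mrpl23, the nearest of them, had 24.6, 35.7 and 23.8 CPM in IAA and 29.5, 25.6 and 29.7 in DMSO (-0.01 ± 0.10, adjusted p = 0.924). The troponin genes Tnnt3 (2.90 ± 0.33) and Tnni2 (2.73 ± 0.50) and the leukocyte gene Lsp1 (2.53 ± 0.27) rose, at no more than 5.91 CPM in any library. Kcnq1ot1, the noncoding RNA of the next imprinted domain, rose by 1.54 ± 0.087.

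Elsewhere, the zinc finger gene Peg3 had 2731, 2488 and 2532 CPM in IAA and 672, 674 and 689 in DMSO (1.93 ± 0.040, adjusted p = 3.46e-38). Plagl1, a growth regulator of the imprinted network, had 335, 297 and 317 CPM against 32.4, 33.4 and 35.1 (3.24 ± 0.068). Both groups were tight and apart in each gene. Usp29, beside Peg3, rose by 1.89 ± 0.12, Peg10 by 1.77 ± 0.038 and Mest by 1.63 ± 0.044. In the Dlk1 and Meg3 domain of chromosome 12, Dlk1 (3.03 ± 0.085) and Rtl1 (3.62 ± 0.47), read from the paternal copy, and Meg3 (1.34 ± 0.043) and Rian (0.68 ± 0.042), from the maternal copy, rose by 2.70, 3.29, 1.01 and 0.34 above the median of the chromosome. Grb10 (-1.48 ± 0.098) and Nap1l5 (-1.41 ± 0.11) fell. Off chromosomes 8, 12 and 14 the count was 12 higher and 8 lower of 26, with a median of 0.0648.

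Genes of the two-cell-like state, a rare state that resembles the two-cell embryo, were mostly lower in IAA at day 4. Of 23 tested, 1 was higher and 16 lower, with a median of -0.349. Zscan4c, which guards telomeres, had 53.3, 50.4 and 55.2 CPM in IAA and 60.8, 60.8 and 61.5 in DMSO (-0.20 ± 0.058, adjusted p = 0.00275). Tcstv1 (-0.86 ± 0.14), Zfp352 (-0.72 ± 0.19), Sp110 (-1.33 ± 0.19) and Tdpoz4 (-1.98 ± 0.45) were lower, and Pramef25 rose by 0.83 ± 0.077. Many of these genes have near-identical copies, so their single values are uncertain. Of 26 germline genes 12 were higher and 5 lower. Stra8, the gatekeeper of meiosis, was the most highly expressed of those named, with 1259, 1259 and 1241 CPM in IAA and 3211, 3371 and 3251 in DMSO (-1.39 ± 0.041). Dazl fell by 0.54 ± 0.041 and the synaptonemal gene Sycp2 rose by 1.31 ± 0.082. At day 0 the log2 fold changes were -1.3 for Stra8, -1.37 for Dazl and -1.17 for Sycp2.

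Of the subunit genes of NuRD, the complex in the title of the series, 5 of 15 were higher and 5 lower, with a median of -0.0168. The remodelling motor gene Chd4 had 1499, 1448 and 1532 CPM in IAA and 1214, 1287 and 1274 in DMSO (0.25 ± 0.044, adjusted p = 6.37e-06), and its relative Chd5 fell by 0.39 ± 0.11 at 11.4 to 16.7 CPM. Chd3 had a log2 fold change of 0.03 ± 0.051 (adjusted p = 0.629). Of the deacetylases, Hdac1 fell (96.3, 98.3 and 94.9 CPM against 143, 154 and 153, -0.63 ± 0.049), and Hdac2 had -0.17 ± 0.096 (adjusted p = 0.142). Of the scaffold subunits, Mta2 (-0.66 ± 0.054) and Mta3 (-0.43 ± 0.043) fell and Mta1 (0.41 ± 0.040) rose, 0.08 above chromosome 12.

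Histone chaperone gene Rbbp4 fell by 0.52 ± 0.045 and Rbbp7 rose by 0.70 ± 0.041, so the paralogs moved in opposite directions. Gatad2b rose by 0.49 ± 0.052 and Gatad2a by 0.31 ± 0.044, the latter 0.06 above chromosome 8. The methyl-CpG-binding genes Mbd3 (-0.08 ± 0.042, adjusted p = 0.0918) and Mbd2 (-0.02 ± 0.060, adjusted p = 0.835) and Cdk2ap1 (-0.02 ± 0.065, adjusted p = 0.863) did not pass. The 15 subunit genes ranged from -0.66 (Mta2) to 0.70 (Rbbp7), all within 2-fold.

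Ctcf had 292, 303 and 313 CPM in IAA and 315, 315 and 301 in DMSO, and its groups overlapped (-0.04 ± 0.040, adjusted p = 0.44). The gene lies on chromosome 8 (chr8:105636568-105682922), 0.29 below the median of that chromosome. RNA levels do not measure the protein that a degron would remove, and the protein was not measured here. Among 18 genes of CTCF and cohesin, the ring that extrudes loops, 8 were higher and 4 lower. The ring subunit gene Rad21 fell by 0.41 ± 0.037 and the loader gene Nipbl rose by 0.32 ± 0.048. The release factor gene Wapl rose by 0.51 ± 0.039, 0.07 above proximal chromosome 14, and the acetylase gene Esco2 fell by 1.08 ± 0.056, 0.29 below the distal segment. The meiotic subunit genes Stag3 (105, 103 and 106 CPM against 36.4, 39.6 and 37.6, 1.46 ± 0.058) and Smc1b (0.58 ± 0.061) and the germline paralog Ctcfl (0.43 ± 0.10) rose.

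Of 12 genes of DNA methylation 5 were higher and 3 lower. The de novo writer gene Dnmt3b had 56.6, 57.8 and 59.9 CPM in IAA and 132, 131 and 142 in DMSO, and the maintenance factor gene Uhrf1 fell by 0.58 ± 0.038. The erasers were higher in IAA: Tet2 as given above, Tet3 by 0.67 ± 0.068 and Tet1 by 0.27 ± 0.054. At day 0 the log2 fold change was already 0.96 for Tet2 and 1.1 for Tet1, and it was 0.14 for Tet3. For Tet1 it was -0.98 at day 2. Dnmt3a rose by 0.12 ± 0.038, 0.21 below the median of its chromosome 12. Polycomb genes had 6 higher and 6 lower of 27, below the 25.9% of all genes in each direction, with Epop at -0.93 ± 0.078 and the methyltransferase gene Ezh2 at -0.26 ± 0.048. Clustered protocadherins, whose promoter choice depends on CTCF, had 7 of 37 higher, 1 of them by at least 2-fold, and 30 not called. Their models share exons, and their single values are therefore not given.

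Genes of the integrated stress response, in which the factor ATF4 turns on amino acid supply, were lower in IAA: 3 of 28 gene models were higher and 17 lower, with a median of -0.369. Atf4 itself fell by 0.39 ± 0.050. The serine and one-carbon gene Mthfd2 (-0.73 ± 0.057), the cysteine synthesis gene Cth (-1.55 ± 0.13) and the arginine transporter gene Slc7a3 (-1.43 ± 0.19) fell. Pck2 fell by 1.98 ± 0.075, which is 1.20 below distal chromosome 14. Vldlr, a lipoprotein receptor gene, rose by 0.84 ± 0.11. Nupr1 had 1.88, 1.94 and 1.97 CPM in IAA and 13.1, 12.7 and 14.5 in DMSO (-2.77 ± 0.17, adjusted p = 9.85e-20). Asns, which makes asparagine, had 54.6, 53 and 52.8 CPM against 80.7, 81.8 and 83.1 (-0.61 ± 0.051). In both, every IAA library was below every DMSO library.

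The promoters of Nupr1 and Asns are shown because each holds the ATF4 motif TGATGNAAN, on the minus strand in Nupr1 and on the plus strand in Asns (RefSeq, GRCm38.p6, the gene's own strand; capitals mark the motif).
Nupr1: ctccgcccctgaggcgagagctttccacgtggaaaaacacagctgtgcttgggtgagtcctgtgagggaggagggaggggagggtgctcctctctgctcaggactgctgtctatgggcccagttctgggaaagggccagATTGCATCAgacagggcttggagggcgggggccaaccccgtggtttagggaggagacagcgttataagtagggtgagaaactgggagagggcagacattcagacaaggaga
Asns: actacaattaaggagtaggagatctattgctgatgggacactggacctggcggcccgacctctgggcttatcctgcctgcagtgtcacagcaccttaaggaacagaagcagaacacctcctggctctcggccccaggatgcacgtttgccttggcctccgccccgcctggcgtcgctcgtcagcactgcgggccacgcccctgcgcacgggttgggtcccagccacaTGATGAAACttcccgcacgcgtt
They lie at chr7:126625471-126625720 and chr6:7693210-7693459, both on the minus strand of the genome, and the motifs begin 111 and 23 bases before the start. The motif, read on both strands in the same window, was found in 3.95% of all promoters and in 8 of 26 on this list (30.8%): Asns, Atf3, Chac1, Nupr1, Pck2, Slc7a11, Trib3 and Vldlr. Of these, Vldlr was higher, Atf3 and Slc7a11 were not called, and the others were lower. Promoters were found for 23 of the 27 genes.

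Cholesterol synthesis genes were also lower, with 1 of 25 higher and 15 lower and a median of -0.251. Hmgcs1 (-0.35 ± 0.041) and Nsdhl (-0.49 ± 0.082) fell, and Fdft1 (-0.92 ± 0.056) lay 0.14 below distal chromosome 14. The feedback regulator gene Insig1 was the member that rose (0.73 ± 0.055). The SREBP motif TCACNCCAC stood in 1.24% of all promoters and in 1 of 20 on this list (5.0%, 17 of 25 genes matched). Of 25 genes of the p53 pathway 2 were higher and 9 lower, including Trp53 (-0.30 ± 0.069), Sesn1 (-0.78 ± 0.086) and the death gene Bax (-0.57 ± 0.065).

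Glycolysis and hypoxia genes rose together, 20 of 25 higher and 2 lower, with a median of 0.574. Ldha, which makes lactate, had 457, 452 and 448 CPM in IAA and 151, 144 and 150 in DMSO (1.61 ± 0.039, adjusted p = 2.18e-35). Pfkl (1.38 ± 0.049), Tpi1 (1.33 ± 0.053), Eno1 (1.14 ± 0.039) and Pgk1 (0.86 ± 0.050), all genes of glycolytic enzymes, rose. Several were already higher in IAA at day 0: the log2 fold change then was 1.35 for Ldha, 1.35 for Pfkl, 0.9 for Tpi1 and 1.21 for Eno1. The mitophagy gene Bnip3l fell by 0.78 ± 0.045, the value of its distal chromosome 14 segment. Of the 13 protein genes of the mitochondrial genome, 12 were higher and 1 was not called, with a median of 0.844, and 2 were at least 2-fold higher. The share of all counts that fell on the mitochondrial genome was 2.47 to 2.52% in the IAA libraries and 1.35 to 1.45% in DMSO. Cytochrome b gene mt-Cytb had 7144, 7039 and 6995 CPM in IAA and 3680, 3632 and 3285 in DMSO (1.00 ± 0.048), mt-Co1 rose by 0.89 ± 0.042 and mt-Nd1 by 0.30 ± 0.041. In mt-Nd4 (1.25 ± 0.14) DMSO replicate 3 stood apart at 755 CPM, against 517 and 506.

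Of 24 antioxidant genes linked to the factor NRF2, 13 were higher and 4 lower. Gstm1 (68.3, 68 and 66.7 CPM against 20.5, 19.9 and 21.3, 1.72 ± 0.090) and Nfe2l2, the NRF2 gene (0.71 ± 0.043), rose, as did Nqo1 (0.67 ± 0.099, 0.42 above chromosome 8) and Osgin1 (1.96 ± 0.56, 1.71 above it). Off the shifted chromosomes 7 of 18 were higher and 4 lower. The NRF2 motif TGACNNNGC stood in 12.4% of all promoters and in 8 of 29 on this list (27.6%, 20 of 24 genes matched). Of the genes with it, Nfe2l2, Srxn1, Me1 and Txnrd1 were higher, Mgst1 was lower, and Gclm, G6pdx and Pgd were not called. Of 12 genes of the aryl hydrocarbon receptor, a sensor of foreign and indole compounds, 6 were higher and 4 lower. Its best known targets went apart: Cyp1b1 had 30.7, 33 and 33.7 CPM in IAA and 4.33, 6.1 and 4.85 in DMSO (2.66 ± 0.11), while Cyp1a1 had 3 counts against 37, a ratio of 0.0658 (95% exact interval 0.013 to 0.208, counting error only). The receptor gene Ahr rose by 0.68 ± 0.14, 0.35 above chromosome 12. The receptor's motif TNGCGTG stood in 5.07% of all promoters and in 1 of 9 on this list (11.1%, 9 of 12 genes matched).

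Mitosis genes were lower in 14 of 22 and higher in 1, with a median of -0.222. Cyclin B1 gene Ccnb1 had 152, 157 and 159 CPM in IAA and 246, 233 and 244 in DMSO (-0.63 ± 0.044). Cdk1 (-0.55 ± 0.076), Kif11 (-0.44 ± 0.038) and Top2a (-0.37 ± 0.041) fell, and Mki67 rose by 0.19 ± 0.045. Of 28 genes of cell cycle entry 10 were higher and 8 lower. The D cyclins moved in opposite directions: Ccnd2 had 199, 186 and 202 CPM in IAA and 37, 37 and 34.1 in DMSO (2.43 ± 0.056) while Ccnd1 fell by 1.29 ± 0.10. Mycn rose by 1.93 ± 0.061, 1.60 above chromosome 12, and the inhibitor gene Cdkn2b by 1.89 ± 0.19.

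Fibroblast markers, given for the feeder cells, were higher in 8 of 19 and lower in 5. Col3a1 (2.02 ± 0.17), Col1a1 (0.76 ± 0.14), Col1a2 (0.75 ± 0.11) and Postn (2.27 ± 0.42) rose. S100a4 had 0 counts in IAA and 9 in DMSO, at least 3.7-fold lower by the floor of 3 counts, and Dcn fell by 2.06 ± 0.69 at under 1 CPM, with the call lost without DMSO replicate 2 (-1.75). Of 10 endothelial and blood markers tested 6 were higher, Kdr among them, and 4 were not called. Flt1 rose by 2.01 ± 0.17, Runx1 by 0.73 ± 0.13, and Emcn had 37 counts against 1, a ratio of 30 (95% exact interval 5.06 to 1218). Of 19 apoptosis genes 5 were higher and 6 lower, and of 25 interferon and antigen presentation genes 10 were higher and 3 lower.

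**Figure D4:**
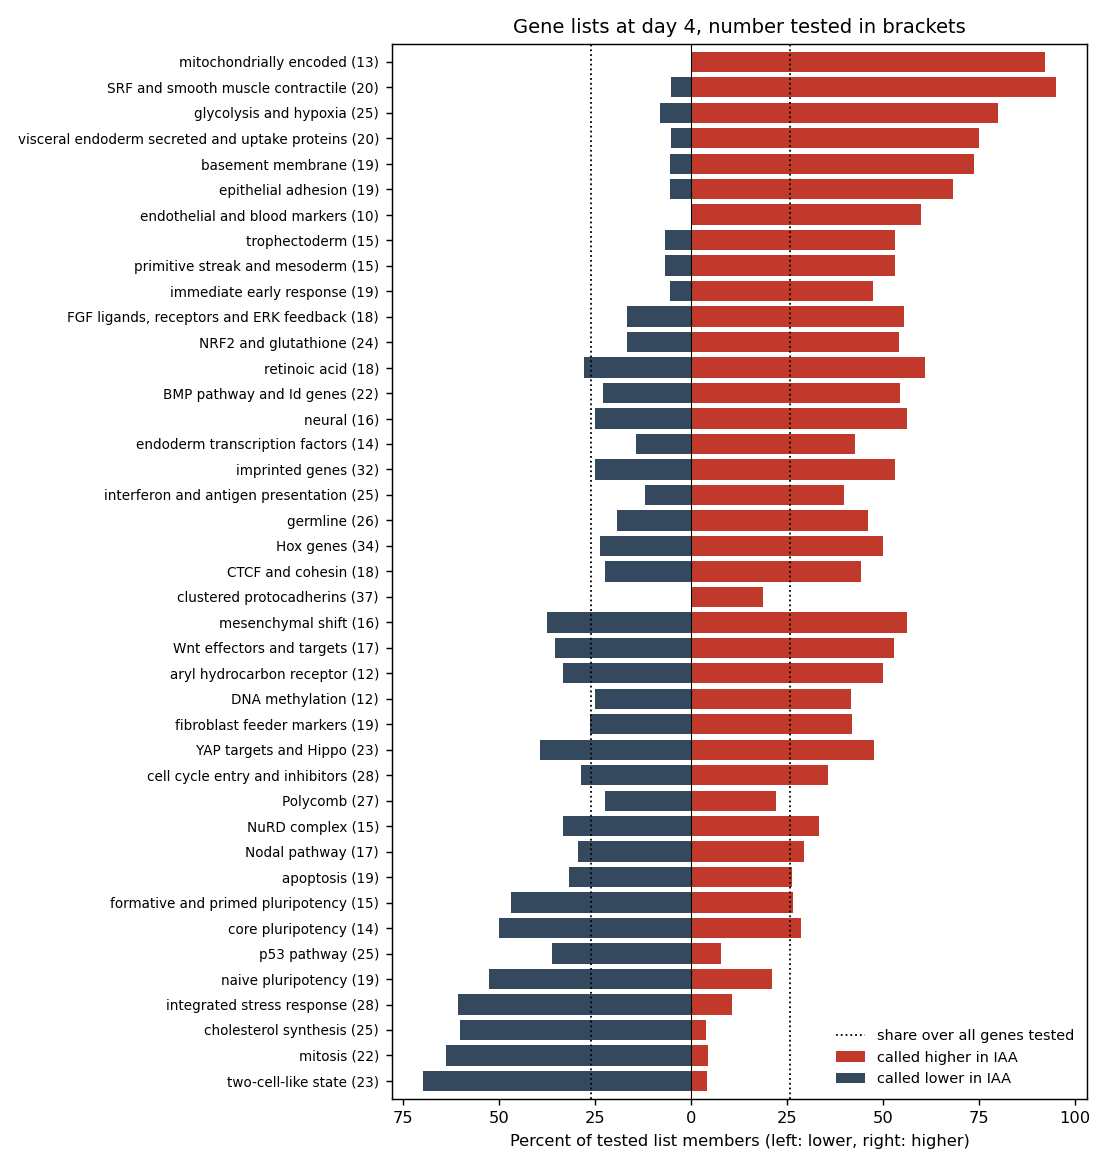
Share of tested members of each of the 41 gene lists that were called higher (to the right) or lower (to the left) in IAA at day 4 (x axis, percent), with the number tested in brackets and dotted lines at the 25.9% of all genes in each direction. Lists are ordered by the difference of the shares, from mitochondrially encoded genes (92.3% higher) to the two-cell-like state (69.6% lower).

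The effect of IAA at day 4 was next compared with its effect at day 2 and at day 6, by testing the difference of the effects. Effect here means the log2 fold change of IAA against DMSO of the same day, whatever its cause. No library is shared between the effects of different days. The effect differed between day 4 and day 2 for 6622 genes (38.1%), of which 3112 had the higher value at day 4 and 3510 the lower. It differed between day 4 and day 6 for 5139 genes (29.5%), 2661 higher and 2478 lower at day 4. Differences of at least 2-fold were fewer, 1685 genes (9.69%) against day 2 and 834 (4.79%) against day 6. Off chromosomes 8, 12 and 14 these calls made up 38.0% and 29.6% of genes.

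The largest difference against day 2 was that of Tdgf1, the Nodal co-receptor gene. Tdgf1 was lower in IAA at day 2 (9.38 CPM against 138 in DMSO, -3.88 ± 0.082) and higher at day 4, a difference of 5.30 ± 0.15 (adjusted p = 1.75e-32). Between these days the level went from 9.38 to at least 16.4 CPM under IAA and from 138 to at most 7.12 under DMSO. The chemokine gene Cxcl12 also changed sign, from -3.32 ± 0.28 at day 2 to 1.65 ± 0.16 at day 4 (difference 4.97 ± 0.32, adjusted p = 8.4e-18). Ecm1 went from -0.35 ± 0.27 to 4.19 (difference 4.54 ± 0.34), and Crabp2, a carrier of retinoic acid, from 4.23 ± 0.071 to -0.26 (difference -4.49 ± 0.091). For Nepn the difference was 4.29 ± 0.88 (adjusted p = 9.23e-05), with levels of 0.354 CPM in IAA and 0.253 in DMSO at day 2, and without DMSO day 2 replicate 3 it was 3.33 and was not called.

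Against day 6, Nepn led, with a difference of 3.92 ± 0.33 (adjusted p = 1.66e-13). It had risen in DMSO to 4.1 CPM by day 6, while IAA stood at 6.54. Mucl3 lay further below DMSO at day 6 (-6.91 ± 0.12) than at day 4, a difference of 2.89 ± 0.38. Sncg, the synuclein gamma gene on proximal chromosome 14, was higher in IAA at day 2 (2.84 ± 0.086) and day 6 (2.14 ± 0.088). At day 4 it was lower (33.7, 33.9 and 37.8 CPM in IAA against 43, 45.7 and 46.9 in DMSO, -0.36 ± 0.080, 0.80 below its segment), a difference of -2.49 ± 0.12 against day 6. Cyp1b1 (2.44 ± 0.15) and Meox1 (2.34 ± 0.12) had the higher effect at day 4. Meox1 stood furthest above DMSO at day 2, by 4.92 ± 0.20, and DMSO reached 26 CPM by day 6.

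**Figure D5:**
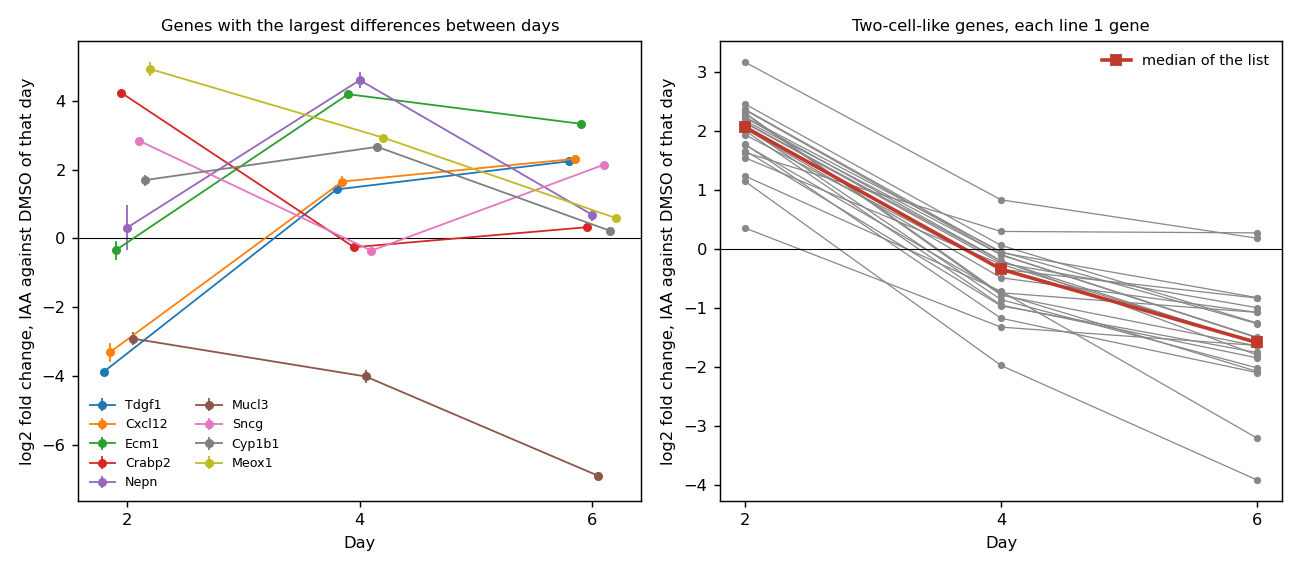
Log2 fold change of IAA against DMSO of the same day (y axis) at days 2, 4 and 6 (x axis) for the 9 genes with the largest differences between days (left, bars show the approximate standard error, points drawn beside the day for legibility) and for the 23 two-cell-like genes (right, grey lines, with their median in red). The two-cell-like median passes from 2.06 at day 2 through -0.349 at day 4 to -1.59 at day 6.

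The two-cell-like genes moved as a group across the days. Their median log2 fold change was 2.06 at day 2, -0.349 at day 4 and -1.59 at day 6. The effect at day 4 was lower than at day 2 for all 23 genes tested and higher than at day 6 for 18 of 23. In DMSO alone all 23 rose from day 2 to day 6, with a median of 2.08. Cholesterol synthesis genes had a median of 0.236 at day 2 and -0.251 at day 4, and the effect at day 4 was called lower than at day 2 in 20 of 25. Against day 6, 9 of the 25 were called higher at day 4 and 2 lower. Hox genes had 15 of 34 called lower and 1 higher at day 4 against day 2, and 2 lower and 11 higher against day 6. Basement membrane genes had 10 of 19 called higher and 4 lower against day 2, and 12 higher and 3 lower against day 6.

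The direction of the changes was last set beside the course of DMSO alone, from day 2 to day 6, which shares no library with the comparison at day 4. Over that course 5762 genes (33.1%) rose and 5181 (29.8%) fell. The medians of chromosomes 8, 12, proximal 14 and distal 14 moved as well, measured against DMSO at day 0. They were -0.0178, -0.0163, -0.0195 and -0.0112 in DMSO at day 2, and 0.0683, 0.141, 0.137 and -0.12 at day 6. A course in time and a change in the cells of the DMSO groups therefore cannot be told apart in the shares below, with or without these chromosomes. Of the 4511 genes higher in IAA at day 4, 57.2% rose over time in DMSO and 13.7% fell, and these were 44.8% of the genes that rose and 11.9% of those that fell. Of the 4510 lower genes 50.7% fell and 21.7% rose, which were 44.1% and 17.0% of the time lists. Off chromosomes 8, 12 and 14 the shares were 58.7% and 13.2% of higher genes, and 51.2% and 21.3% of lower genes. Igf2 rose in DMSO by 5.33 ± 0.13, Meox1 by 5.07 ± 0.19, and Spp1 fell by 1.32 ± 0.047, in the direction of the change at day 4. Gkn1 rose over time in DMSO by 2.31 ± 0.079 and Mucl3 by 3.24 ± 0.077, against the direction of their change at day 4, while Lin28a rose over time by 0.60 ± 0.060.

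BPK25 at day 4 was compared with the same 3 DMSO libraries, so its values are set beside those of IAA without a test of the difference. As given above, its chromosome medians of that day (0.268, 0.504, 0.616 and -0.953 against DMSO day 0) lay near those of IAA. A like effect of both agents and a likeness of the cells thus cannot be told apart here. The gastrokine genes were low in both, with mean levels under BPK25 of 0.0893 CPM for Gkn1 and 0.127 CPM for Gkn2. Mucl3 (-4.39 ± 0.19) and Myo7a (-2.71) were low as well. Tagln (4.32), Acta1 (3.36) and Afp (4.76) were high under BPK25, as under IAA. Igf2 (1.48 ± 0.10), Acta2 (1.86) and Peg3 (0.07 ± 0.040) had smaller values than under IAA, and Nupr1 (0.53) and Cyp1a1 (5.63) had the opposite sign. Of the basement membrane genes named above, Lama1 (-1.66), Lamc1 (-1.07), Col4a1 (-0.75), Col4a2 (-0.68) and Lamb1 (-0.18) had the opposite sign as well. Lama5 (1.33) and Hspg2 (0.52) had the same sign as under IAA. Nepn had a mean of 0.0991 CPM under BPK25, below each DMSO library.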

How the data were processed

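RNA levels were analysed in 36 libraries of mouse embryonic stem cells, 3 in each of 12 groups of treatment and day taken from the labels. The deposited table holds whole-number counts of reads per gene, which the authors made from their reads with FastQC 0.11.7, HISAT2 2.1.0 and featureCounts 2.0.1 on mm10, per the submitters' processing notes. No source used here gives the strand setting or annotation release. Each of the 36 columns was matched to its sample by name.

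All 36 libraries entered a single fit in edgeR 4.0.16 (R 4.3.3, limma 3.58.1) with 1 mean per group, TMM normalization and filterByExpr (minimum count 10, minimum total 15), which left 17394 of 55335 genes. Contrasts were tested two-sided with the quasi-likelihood F test and Benjamini-Hochberg adjustment over all genes tested (called under 0.05). Replicates varied by 3.86% (common biological coefficient of variation). CPM used TMM-scaled totals, except the sums over marker lists, which used plain totals over all genes. The procedure was tested on simulated data. Gene IDs were matched to GENCODE M21 (GRCm38) for 99.9% of tested genes, and promoter sequences are from RefSeq (GRCm38.p6).

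Named genes were, by rule, called genes with no overlap between groups, a call kept without each library, 5 CPM or more on average in either group and no predicted or clone-like symbol: the 12 highest, the 12 lowest, the 5 of smallest p, and the 5 largest differences between day 4 and each of day 2 and day 6 (there with the conditions on level and symbol only). For each gene list up to 6 called members of smallest p were named, with members whose role was needed, and always Ctcf and NuRD. Members and lists were chosen with earlier results of these data known. Alternatives were RLE size factors, DESeq2 1.42.0, a stricter filter and none, fits on fewer groups, a replicate block and leaving out each library.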

Additional observations from a re-analysis of the deposited data

Results flagged for a closer look

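For 10 values the effect of IAA at day 4 differed from that at another day by the test of the difference itself (edgeR's quasi-likelihood test, adjusted over all genes). Against day 2 these were Tdgf1 (log2 difference 5.3), Cxcl12 (4.97), Ecm1 (4.54), Crabp2 (-4.49) and Nepn (4.29). Against day 6 they were Nepn (3.92), Mucl3 (2.89), Sncg (-2.49), Cyp1b1 (2.44) and Meox1 (2.34). Tdgf1 and Cxcl12 were lower in IAA at day 2 and higher at day 4, and Crabp2 went the other way.

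The BPK25 libraries of day 4, which are no members of the comparison of IAA with DMSO, had chromosome medians away from those of DMSO at day 4. The median log2 difference was 0.211 on chromosome 8, 0.338 on chromosome 12, 0.48 on proximal and -0.832 on distal chromosome 14. At day 6 the BPK25 values against DMSO of that day were 0.0247, 0.0591, 0.0704 and -0.0941. The groups hold 3 libraries each, so no library was tested as an outlier within its group.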

How the results depend on the processing

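Every count of calls stayed within 1.5 times its value under each alternative run. Leaving out 1 library gave 4104 to 4284 higher and 4011 to 4166 lower genes, and the other alternatives 4054 to 4638 and 3889 to 4517. Called genes of at least 2-fold numbered 904 to 1293 higher and 522 to 702 lower over the other alternatives.

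Of 270 gene values, 262 kept their direction and their side of the threshold throughout. Values near 0 changed sign. Without the filter on low counts, Mrpl23 was 0.0131, Mbd2 0.0091 and Cdk2ap1 0.0104. Over the fits that leave out 1 library, Mrpl23 ran from -0.218 to 0.102, Mbd2 from -0.0638 to 0.0676 and Cdk2ap1 from -0.0528 to 0.0387. Calls were lost for Sox17, Cald1, Dcn and Nepn (day 4 minus day 2), as given with those genes, and Hdac2 was called at -0.163 when only the groups or days compared were fitted and at -0.141 without the filter. The cause was not tested. The fits on fewer groups left 4 and 3 gene values that could not be fitted.

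The replicate numbers did not pair the samples: the correlations of same-numbered libraries were -0.0234, -0.0234 and 0.0246. With the replicate number as a block, 4506 genes were higher and 4505 lower, 1093 and 672 of them by at least 2-fold, and 6582 and 5089 genes differed from day 2 and day 6. The DMSO course from day 2 to day 6 gave 10922 calls with the block. No gene value changed its call under the block.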
